A study of Argopecten irradians irradians with 6 samples.

Results

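The miRNA families miR-8, miR-141, miR-263, miR-183 and miR-96 form a group known from epithelial and sensory cells, and their small-RNA counts were described here in shell-closing (adductor) muscle of bay scallops, Argopecten irradians irradians. They were taken by family number from a table of small-RNA counts, whatever the species prefix, letter, copy or arm of the name, and comprised 166 of its 5446 rows. The 2 groups were white muscle of Bohai Red scallops and orange muscle of QN Orange scallops, with 3 libraries each and 3 muscles pooled in each library from 9 muscles per strain. Strain and muscle colour therefore cannot be told apart, and the labels give no age, sex or treatment. The study's title names carotenoid accumulation as its subject. The columns of the table carry only the letters B and G with a number. B was read as Bohai Red and G as QN Orange, an inference that the sources do not settle. Every group label and direction given here rests on it. The libraries are numbered as in the column names and sample titles, and values of a group are given in the order of replicates 1, 2 and 3.

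miRNAs are short RNAs that guide silencing proteins to messenger RNAs through the first bases of the mature strand. miR-8 is the invertebrate member of the family that vertebrates keep as miR-200 and miR-141, which is known from epithelia, where in vertebrates it represses the ZEB transcription factors. In Drosophila miR-8 also acts in the fat body and in neurons. miR-183 and miR-96 lie with miR-182 in one cluster in vertebrates and are abundant in hair cells of the ear, photoreceptors and other sensory cells. miR-263 is a related family of invertebrates that protects sensory bristles from cell death in Drosophila. These families are not classed as muscle miRNAs, and levels in whole muscle pools may come from any cell type within them. In such bulk samples, fewer cells of a type and less RNA per cell cannot be told apart.

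Of the 166 rows, 113 had counts and 53 were at 0 in all 6 libraries. Rows with identical counts in all libraries were merged, which left 24 distinct profiles. The family miR-8 had 32 rows, of which 31 had counts in 10 profiles. All 24 rows of miR-141 held 1 profile. Of the 58 rows of miR-263, 44 were at 0 and 14 had counts in 4 profiles. The 45 rows of miR-183 gave 38 rows with counts in 4 profiles, and the 7 rows of miR-96 gave 6 in 6 profiles. A single count in orange replicate 1 was shared by 11 rows of miR-263b and miR-96 names, so 1 profile belongs to both families.

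The species names that took up the counts differed between the families. For miR-8, most rows were almost interchangeable. The annelid name cte-miR-8 was the highest, with 6507 counts over the 6 libraries, and 25 names of insects, other arthropods, annelid and molluscs, itself included, lay within 10 percent of it. Of the other rows with counts, bdo-miR-8 of a fruit fly had 723 and the remaining 5 had 1 to 4. The mosquito row aae-miR-8-3p, with the same counts as the fly row dme-miR-8-3p and 15 other names, held 93.9% to 97.5% of the counts of cte-miR-8 in each library. For miR-263, the annelid name cte-miR-263 held 42947 counts and the limpet name lgi-miR-263a 12537, while the fly rows dme-miR-263a-5p and dme-miR-263b-5p were at 0. For miR-183, the lancelet names bbe-miR-183-5p and bfl-miR-183 held 3575 counts each, and 34 vertebrate names with 1 profile, among them ami-miR-183-5p, held 1079. For miR-96, the mollusc names mle-miR-96a-5p and lgi-miR-96a, of a nudibranch and a limpet, held 28943 and 28928 counts and lgi-miR-96b held 4565. The table gives no sequences, so how many reads 2 names share could not be read from it.

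Where the names of miR-8 and miR-183 gave an arm of the hairpin, the counts lay on the arm known as the mature strand. In miR-8, 16 rows named -3p held counts and the 1 row named -5p held 0, and miR-141 had only -3p rows among those with an arm. In miR-183, all 20 rows named -5p held counts and all 6 rows named -3p were at 0. These 6 names are all of mammals, and the lancelet names have no -3p row. Without sequences it is not known whether scallop reads of that arm could match them. The rows at 0 therefore do not measure how the arms are used. In miR-263, the rows with an arm were all named -5p and held few counts: 6 of 20 had any, 5 of these only the single count in orange replicate 1, and together they held 190 counts, while cte-miR-263 names no arm. The nudibranch miR-96b was the 1 member with counts on both arms of a hairpin. Its row mle-miR-96b-5p had 500, 17 and 15 counts in the white libraries and 295, 29 and 22 in the orange libraries. Its row mle-miR-96b-3p had 7, 0 and 0 counts in the white and 19, 1 and 3 in the orange libraries. The -3p row thus held 1.38% of both arms in white replicate 1 (exact Clopper-Pearson 95% interval 0.557% to 2.82%) and 6.05% in orange replicate 1 (3.68% to 9.29%). These intervals do not overlap, but they cover counting error in 2 libraries only. In the other libraries both arms together had 15 to 30 counts. By the same exact intervals, the counts of 0 in white replicates 2 and 3 allow shares of up to 19.5% and 21.8%.

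Levels were compared on the most abundant row of each family, since a sum over names can count reads repeatedly. CPM are counts per 1000000 of these rows after TMM scaling, with no length term, which matters little between mature miRNAs. The totals over 1 row per family were 2092825 to 4001516 counts per library. The muscle families were abundant in every library: miR-133 had 538671 to 987656 counts and miR-1 had 302162 to 780656. The 5 families together held 0.948%, 0.145% and 0.155% of the counts of the white libraries and 0.541%, 0.195% and 0.264% of those of the orange libraries. Orange muscle had a mean share of 0.334% ± 0.183 and white muscle one of 0.416% ± 0.461 (SD, n = 3 each). The difference of -0.0826 percentage points had an exact permutation p of 1.0 (two-sided), and 0.1 is the smallest p that this design allows. The groups overlapped, and the libraries numbered 1 held the highest share in both.

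Among the sensory families, miR-263 was the most abundant. It was at 4315, 778 and 771 CPM in the white libraries and at 2469, 1199.7 and 1079 CPM in the orange libraries. White replicate 1 was the highest of all 6, and the other white libraries were the lowest. miR-96 was at 2296, 651 and 550.5 CPM in the white libraries and at 1562, 1052 and 1485 CPM in the orange ones. Here too white replicate 1 lay above and white replicates 2 and 3 below all orange libraries. miR-183 followed the same order, at 393, 55.0 and 42.6 CPM in the white and 170.5, 106 and 110.3 CPM in the orange libraries.

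The epithelial family miR-8 was at 508, 99.4 and 93.2 CPM in the white libraries and at 607, 176 and 133 CPM in the orange libraries. Both libraries numbered 1 were high, and orange replicate 1 was the highest of all. miR-141 was near the limit of counting, with 0, 1 and 5 counts in the white and 5, 0 and 0 in the orange libraries. A count of 0 allows up to 0.594 CPM in white replicate 1, 1.86 CPM in orange replicate 2 and 0.864 CPM in orange replicate 3. Its 24 names are vertebrate and tunicate ones, and these counts are too low to compare it with miR-8.

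By mean level, miR-263, miR-96, miR-8 and miR-183 ranked 22, 27, 42 and 49 among the 142 families that passed the filter on low counts. Within libraries miR-263 exceeded miR-96 in 5 of 6, with orange replicate 3 as the exception, and miR-8 exceeded miR-183 in 6 of 6. The ranges of miR-263 and miR-96 overlapped in both muscles, as did those of miR-8 and miR-183. Between these pairs there was a step: the lowest level of miR-96 was 550.5 CPM in white and 1052 CPM in orange muscle, above the highest level of miR-8 in the same muscle, 508 and 607 CPM.

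**Figure D1:**
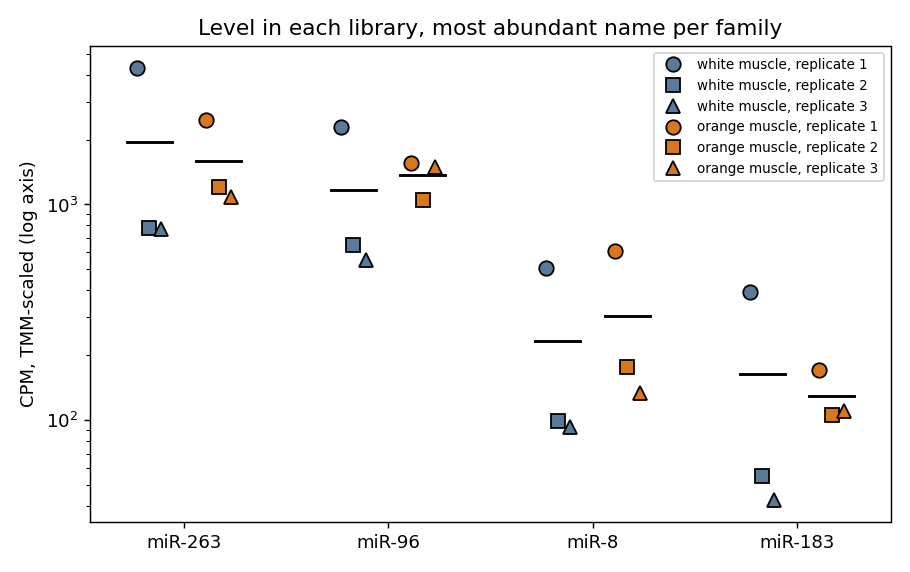
CPM of the most abundant row of 4 families in each of the 6 libraries, on a log axis. Bars mark the mean of the 3 libraries of a group. White replicate 1 lies at 4315 CPM for miR-263, above the orange libraries, and white replicates 2 and 3 at 778 and 771 lie below them, and the same holds for miR-96 and miR-183.

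No member differed between orange and white muscle beyond the spread between pools. By edgeR's quasi-likelihood test with Benjamini-Hochberg adjustment over all families, 13 of 142 families passed 0.05, or 9.15%, 7 higher and 6 lower in orange muscle, and 0 of the 4 tested members were among them. DESeq2 called 33 families, or 23.2%, 11 higher and 22 lower, also without a member. At an unadjusted p under 0.05 there were 38 families by edgeR and 52 by DESeq2, and again no member. miR-141 had too few counts for the filter. The median log2 difference of all 142 families was 0.20, orange minus white, and that of the 4 members was -0.04.

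miR-8 averaged 305 ± 262 CPM in orange against 234 ± 238 CPM in white muscle (SD, n = 3 libraries a group), which is 0.39 on the log2 scale with an SE of 0.90. miR-263 averaged 1583 ± 770.1 CPM in orange against 1955 ± 2044 CPM in white muscle, or -0.30 on the log2 scale with an SE of 0.75. miR-183 averaged 129 ± 36.1 against 164 ± 199 CPM, or -0.34 with an SE of 0.89, and miR-96 averaged 1366 ± 275 against 1166 ± 980.3 CPM, or 0.23 with an SE of 0.60. Each of these 4 differences had an adjusted p of 0.807 by edgeR. Relative to the median family, these 4 log2 differences were 0.19, -0.51, -0.54 and 0.03. The 50 families whose groups did not overlap made up 35.2% of the 142, and no member was one of them.

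The sign of each difference rested on single libraries. Without white replicate 1, the log2 differences became 1.67 for miR-8, 1.01 for miR-263, 1.37 for miR-183 and 1.14 for miR-96, all higher in orange muscle and none past the threshold (adjusted p = 0.2295, 0.235, 0.131 and 0.1004, edgeR). In that fit 20 of 154 families passed, or 13%. Without orange replicate 1, miR-8 turned to -0.62 and miR-263 moved to -0.80.

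Without both libraries numbered 1, the log2 differences were 0.54 for miR-8, 0.42 for miR-263, 1.02 for miR-183 and 0.94 for miR-96, and none passed (adjusted p = 0.3625, 0.337, 0.1396 and 0.103, edgeR), while 19 of 139 families did, or 13.7%. In these 4 libraries each of the 4 members was higher in both orange than in both white libraries, an order that 53 of 142 families, or 37.3%, showed. The libraries left out were those in which these members were highest in their groups, so this order is given as description.

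**Figure D2:**
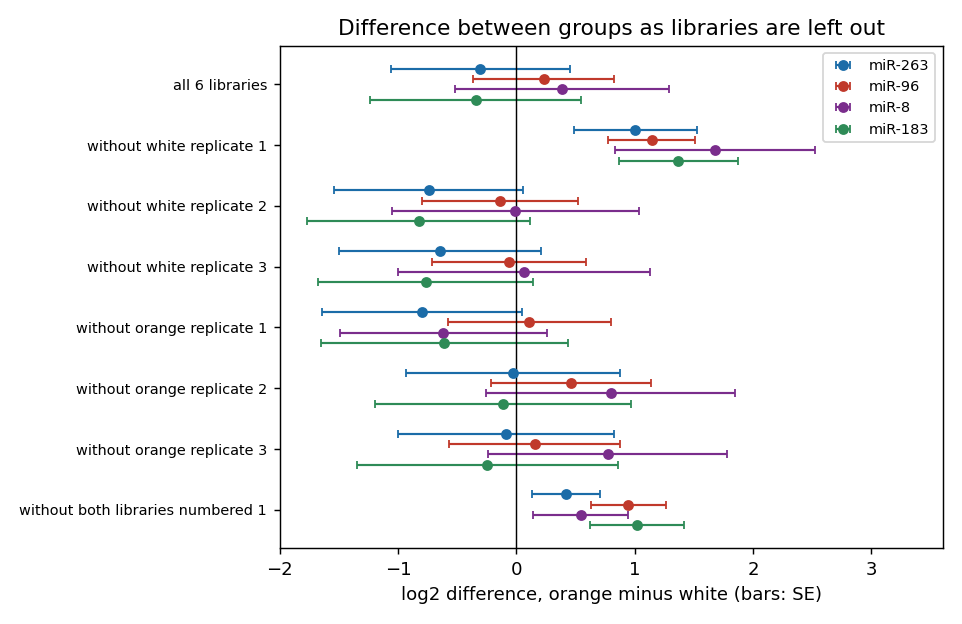
Log2 difference, orange minus white, of 4 families with all 6 libraries and with libraries left out. Points are edgeR estimates and bars are 1 SE. With all libraries the values lie between -0.34 and 0.39, and without white replicate 1 they lie between 1.01 and 1.67.

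The 4 tested members were highest in the libraries numbered 1, by a larger ratio in white than in orange muscle. For miR-96 orange replicate 1, at 1562 CPM, was close to orange replicate 3, at 1485 CPM. White replicate 1 exceeded the mean of the other 2 white libraries 5.28-fold for miR-8, 5.57-fold for miR-263, 8.05-fold for miR-183 and 3.82-fold for miR-96. Of all 142 families, 25 or 17.6% exceeded 3-fold there, and the median ratio was 0.879, against 5.43 for the 4 members. The members were not the most extreme families in that library. Higher ratios were those of miR-10 at 60.961, miR-1990 at 42.767, miR-278 at 34.98 and miR-279 at 11.385, among others. Other families lay within the range of the members, such as miR-31 at 6.869 and miR-12 at 5.439. Orange replicate 1 exceeded the mean of the other 2 orange libraries 3.93-fold for miR-8, 2.17-fold for miR-263, 1.58-fold for miR-183 and 1.23-fold for miR-96, where the median of all families was 0.81. Between orange replicates 2 and 3 the members did not move together. There miR-8 went from 176 to 133 CPM and miR-263 from 1199.7 to 1079 CPM, while miR-183 went from 106 to 110.3 CPM and miR-96 from 1052 to 1485 CPM. The libraries numbered 1 were the highest of their group in both groups for 4 of 4 members and for 24 of 142 families, or 16.9%.

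The same held for most names behind the families. Of the 18 profiles with at least 20 counts in each group, white replicate 1 was the highest white library in 17 and orange replicate 1 the highest orange library in 18. Many of these profiles had nearly the same counts, such as mle-miR-96a-5p with 28943 and lgi-miR-96a with 28928. They are therefore not independent observations, and the share of all profiles in this order was not computed. The 7 profiles of miR-8, most of them with nearly the same counts, lay at 5.13 to 6.23-fold in white replicate 1 and 3.87 to 4.53-fold in orange replicate 1. The 4 profiles of miR-96 ran from 3.83 to 19.995-fold and from 1.23 to 6.37-fold, and the 3 of miR-263 from 1.42 to 10.2-fold and from 2.06 to 3.44-fold. The exception in white replicate 1, after scaling, was the profile shared by lgi-miR-263b and mle-miR-263a-5p, with 56, 35 and 15 counts in the white libraries.

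**Figure D3:**
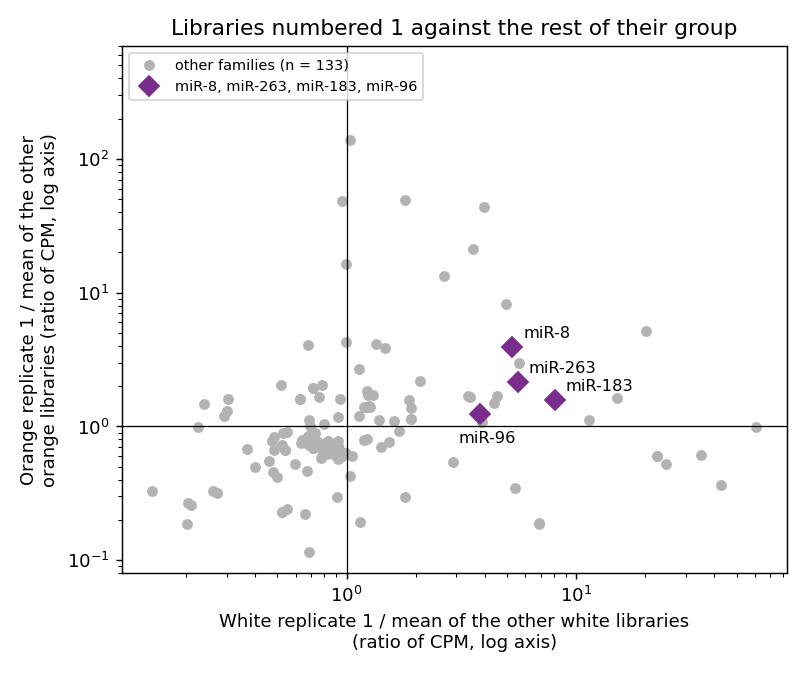
Ratio of CPM in replicate 1 to the mean of the other 2 libraries of its group, for white muscle on the x axis and orange muscle on the y axis, both on log axes. Diamonds are the 4 tested members and grey points are 133 other families, with 5 families left out whose ratio has a 0 on either side. The members lie at 3.82 to 8.05 on the x axis and at 1.23 to 3.93 on the y axis.

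Ratios between members within a library need no scaling, and 4 were compared. The log2 ratio of miR-263 to miR-8 was 3.09, 2.97 and 3.05 in the white libraries and 2.02, 2.77 and 3.02 in the orange libraries. The 3 white pools thus lay within a narrow range although white replicate 1 held far more of both families, and orange replicate 1 was the lowest of all. The difference between groups was -0.43 (exact two-sided permutation p = 0.2, adjusted p = 0.8 over the 4 ratios, n = 3 each), and it was -0.14 without orange replicate 1. The log2 ratio of miR-183 to miR-8 was also lowest in orange replicate 1, at -1.83, against -1.13 to -0.27 in the other 5 libraries. The group differences of miR-183 to miR-8, miR-96 to miR-183 and miR-263 to miR-183 were -0.16, 0.15 and -0.27 (exact permutation p = 0.9, 0.8 and 0.5, adjusted p = 0.9 each), and the groups overlapped in all 4 ratios.

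Names of 1 family did not keep the same proportions in every library. The limpet name lgi-miR-263a had 38.6% of the counts of cte-miR-263 in white replicate 1 and 18.1% to 21.8% in the other 5 libraries. The vertebrate names of miR-183 had 37.9% of the counts of the lancelet names in white replicate 1, 23.3% and 28.0% in the other white libraries and 16.96% to 20.4% in the orange ones. White replicate 1 stood apart in both ratios, so its excess was larger for lgi-miR-263a and for the vertebrate miR-183 names than for the most abundant names of these families. The name lgi-miR-96b had 20.7% and 25.2% of the counts of mle-miR-96a-5p in the white and orange libraries numbered 1, against 2.60% to 8.07% in the other 4. The range of bdo-miR-8 was narrower, at 9.27% to 11.5% of cte-miR-8 in all 6. Its highest values were also in the libraries numbered 1, at 11.4% in white and 11.5% in orange muscle. These ratios were chosen after their counts were seen and are given as description.

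**Figure D4:**
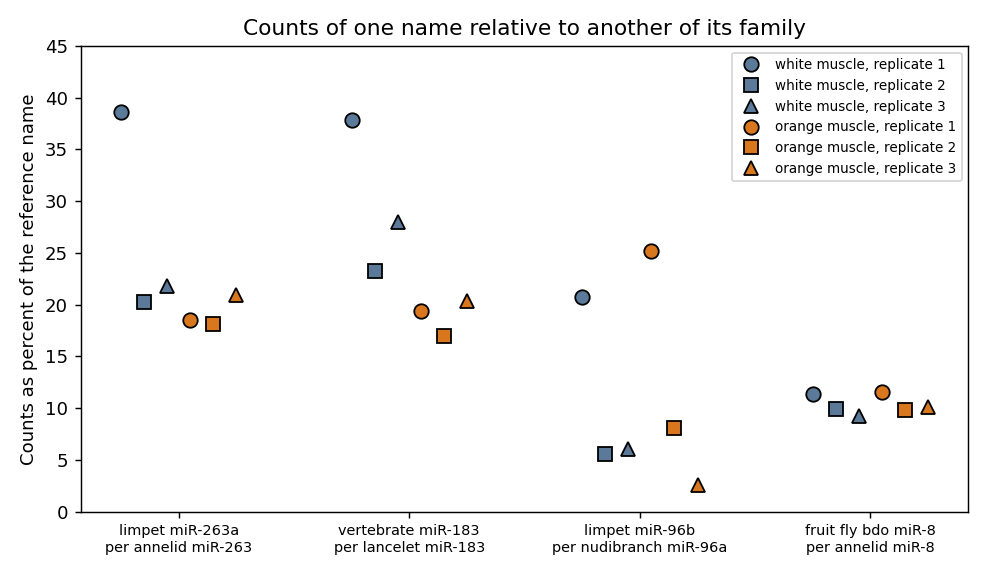
Counts of one name as a percent of the counts of another name of the same family, for 4 pairs of names in each of the 6 libraries. White replicate 1 lies at 38.6% and 37.9% in the miR-263 and miR-183 pairs, the white and orange libraries numbered 1 lie at 20.7% and 25.2% in the miR-96 pair, and the miR-8 pair stays between 9.27% and 11.5%.

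Relatives of these families had few counts. miR-182, of the miR-183 cluster in vertebrates, had 29, 2 and 2 counts in the white libraries and 5, 2 and 2 in the orange libraries. After scaling, it was highest in white replicate 1. In the orange libraries its counts were too low to rank, at 1.18 CPM in replicate 1 and 1.24 CPM in replicate 2. miR-203, known from vertebrate skin, had 2, 0 and 2 counts in the white and 3, 0 and 5 in the orange libraries. miR-200 had 1 count in orange replicate 3, and miR-205, of vertebrate stratified epithelia, was at 0 in all. None of them passed the filter. miR-429 and miR-228 were not analysed here.

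Other families with the most similar pattern over the 6 libraries were found by the root mean square difference of centred log2 CPM, among 138 families that are no members. The predicted miRNA Contig347_13229 was closest to both miR-263 and miR-8, at 0.186 and 0.252 log2 units, where the median over the 138 was 1.22 and 1.33. It was at 151, 26.9 and 27.1 CPM in the white and 118, 37.8 and 40.9 CPM in the orange libraries. Closest to miR-183 was miR-279, at 0.262, with 4484, 387 and 401 CPM in the white and 1203, 1063 and 1077 CPM in the orange libraries. miR-279 is known from Drosophila, where it acts in the development of sensory neurons. miR-279 was also second to Contig347_13229 for miR-263, at 0.483, and Contig347_13229 second to miR-279 for miR-183, at 0.378. miR-9, a neural family, lay at 0.499 from miR-8 and miR-315 at 0.531 from miR-183. Contig467_18281 lay at 0.726 from miR-8 and Contig436_17136 at 0.552 from miR-263. The nearest families to miR-96 were 3 predicted miRNAs at 0.366 to 0.373, of which Contig1317_31844 and Contig438_17191 had identical levels. Between members, miR-263 lay at 0.297 from miR-183 and at 0.369 from miR-8, and miR-8 and miR-96 were the farthest apart at 0.633.

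Markers of other cell types in the pools moved with the libraries numbered 1 only in part. Of the 6 neural families listed, 4 were tested and none was called. miR-9 was 4.96-fold above the mean of the other 2 libraries in white replicate 1 and 8.19-fold in orange replicate 1. miR-124, abundant in neurons, had 96, 60 and 69 counts in the white and 2554, 21 and 41 in the orange libraries, and was thus high in orange replicate 1 alone. miR-137 had 84 counts there and 0 and 1 in the other orange libraries, whereas miR-153 was 0.689-fold and 1.12-fold. miR-219, which did not pass the filter, had 19, 0 and 0 counts in the white and 0, 2 and 2 in the orange libraries. Summed over the list, the neural families were at 145, 160.5 and 150 CPM in the white libraries, a sum of which miR-153 held the most and in which the excess of miR-9 and miR-219 in replicate 1 does not show. The orange libraries had sums of 769, 126 and 64.8 CPM.

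The 2 tested muscle families of 5 listed were not called and were not raised in the libraries numbered 1. miR-1 was 0.827-fold and 0.658-fold there in white and orange muscle, and miR-133 0.69-fold and 0.725-fold. The muscle list summed to 350168 CPM in white replicate 1, against 509779 and 431464 in the other white libraries, and to 293705 CPM in orange replicate 1, against 521102 and 316807. The ciliated cell family miR-34, the 1 tested of 2 listed, ran from 128 to 149 CPM in the white and from 178 to 274 CPM in the orange libraries and was not called. The gut and digestive gland list had 3 tested families of 7, none called and none highest in a library numbered 1. It summed to 2287 to 2975 CPM in the white and 1197 to 2657 CPM in the orange libraries. miR-216 held nearly all of each sum, which therefore does not show the other families. miR-375 was at 7.33, 8.63 and 13.7 CPM in the white and 17.5, 32.2 and 126 CPM in the orange libraries. miR-194 was at 1.78, 5.76 and 3.87 CPM in the white and 8.28, 9.30 and 15.0 CPM in the orange libraries. Of the 5 immune families listed, 4 had rows, none passed the filter, and their sum stayed between 0.00 and 0.96 CPM. Whether these names mark immune cells of scallops is not known here, so the low counts do not show that such cells were absent. Listed families without a row in the table were not analysed here. The part of other cell types in the pattern of the members was not tested.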

How the data were processed

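Small RNAs of 6 pools of scallop adductor muscle were analysed from 2 deposited tables of 5446 rows. The authors deposited whole-number counts per miRNA name, without normalization as far as the values show, and TPM values that matched counts scaled to 1000000 per column within 5.00e-05. The aligner, adapter trimming, miRNA reference and counting rule are not given in the sources used here. The TPM table has 9 further columns of per-sample values, which were not used. Columns named BHR and BH are among them and could also stand for Bohai Red. No sequences or genome were used.

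The members and lists were chosen with earlier results of these data known. Counts were summarised as the most abundant row of each family, with each predicted miRNA as its own family (491 families with counts). The test was the quasi-likelihood F test of edgeR 4.0.16 under R 4.3.3, after TMM scaling and filterByExpr, with robust glmQLFit. Families with a Benjamini-Hochberg adjusted p under 0.05 were called, with DESeq2 1.42.0 as an alternative. The code was tested on simulated data. The SE is the log2 difference divided by the square root of F. Shares and ratios were tested with exact permutation tests (SciPy 1.17.1), 3 against 3. Families can share reads, so adjusted p-values lack their full nominal meaning. Intervals and limits of a count of 0 (3 counts) cover counting error only. The p-values measure the spread between pools. The 5 members, their relatives, the lists of other cell types and the 3 most similar families of each member were named by rule. Similarity used log2 CPM with a prior count of 0.5.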

Additional observations from a re-analysis of the deposited data

How the results depend on the processing

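None of the 4 tested members passed the threshold in any of the 14 alternatives; their lowest adjusted p was 0.1004, for miR-96 without white replicate 1 (edgeR). Directions did not hold. With 1 library left out, the log2 difference ran from -0.62 to 1.67 for miR-8, from -0.80 to 1.01 for miR-263, from -0.82 to 1.37 for miR-183 and from -0.14 to 1.14 for miR-96. The difference of miR-8 turned to -0.01 without white replicate 2, -0.62 without orange replicate 1 and -0.31 over distinct profiles. That of miR-96 turned to -0.027 by the DESeq2 test, -0.027 with DESeq2 size factors, -0.041 with library totals, -0.0382 with no filter, -0.48 over distinct profiles, -0.14 without white replicate 2 and -0.06 without white replicate 3. Without white replicate 1, miR-263 turned to 1.01 and miR-183 to 1.37, and without both libraries numbered 1 they turned to 0.42 and 1.02. The median of all families moved from 0.20 to -0.07 with DESeq2 size factors and -0.01 with library totals. It was -0.15 with no filter and -0.41 over distinct profiles, where miR-8 lay above it and miR-96 below.

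Same-numbered libraries did not deviate together in every pair (correlations over families 0.192, -0.062 and 0.126). Differently numbered libraries ran from -0.252 to 0.149. These values do not settle whether the numbers pair the samples, and the labels do not say so. With the replicate number as a block, miR-263 and miR-183 turned to 0.11 and 0.40, those of miR-8 and miR-96 were 0.53 each, and 12 families passed, 9 higher and 3 lower.

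The number of families called was 33 by the DESeq2 test, 20 with library totals (8 higher and 12 lower), 29 with no filter and 4 over distinct profiles, and ran from 0 to 20 with 1 library left out, with 0 without white replicate 2 and 0 without white replicate 3. The split was 3 higher and 6 lower with DESeq2 size factors. miR-141 could be fitted only with no filter (log2 difference -0.49) and as a family sum (-0.32). The log2 ratio difference of miR-183 to miR-8 turned to 0.05 without white replicate 1 and 0.28 without orange replicate 1. It was 0.49 without both libraries numbered 1. That of miR-96 to miR-183 turned to -0.21 with white replicate 1 left out, to -0.01 with orange replicate 3 left out and to -0.10 without both libraries numbered 1, and that of miR-263 to miR-183 to 0.14 with family sums. With 1 library left out, these ran from -0.50 to 0.28, from -0.21 to 0.36 and from -0.45 to -0.09, and miR-263 to miR-8 from -0.64 to -0.14. The share of the members turned to 0.1837 percentage points without white replicate 1 and 0.0798 without both libraries numbered 1, and ran from -0.2181 to 0.1837 with 1 library left out. The cause of these turns was not tested. Counts of miR-141 and of both arms of miR-96b outside the libraries numbered 1 are too low to show a difference.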
